A study of Mus musculus with 8 samples.

Results

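Ultraconserved regions are stretches of the genome that stayed identical among human, mouse and rat, and the array used here carries a probe for each strand of 481 of them, 962 probes among 59709 non-control probes. They were chosen by name alone, as the non-control probes called uc. with a number and a plus or minus sign, and each number has exactly 1 probe of each sign. The samples were skeletal muscle of ICR mice, an outbred strain, at postnatal day 0 (D0, 4 arrays) and postnatal day 65 (D65, 4 arrays), with no treatment or genetic change named. The question of the study was which long noncoding RNAs differ between these ages. Which muscle was taken, and whether each sample came from a separate animal or from pooled animals, is not stated in the labels. The spread behind each p-value is therefore that of these samples, and part of it may be technical.

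Many ultraconserved regions lie inside or beside genes for RNA-binding proteins, splicing regulators and developmental transcription factors. Some act as enhancers, some are exons whose inclusion sends a transcript to decay, and some are read into RNAs of their own, called transcribed ultraconserved regions, which can come from either strand. A probe of 1 strand cannot tell such an RNA from an intron or exon of a host gene that runs the same way. The files give no genome position, host gene or probe sequence for the members, and no table used here pairs them, so each is described by its name. Regions are given by their uc. name or by the probe identifier of the scanner files, and the plots label all of them by the uc. name. Which genome strand the plus sign stands for is likewise not given in the sources used here.

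A level is the log2 processed signal with the array's own 75th percentile subtracted, so a level of 0 equals that percentile and a difference of 1 is 2-fold. The first part of the barcode in the file headers is 1 on all D0 arrays and 2 on all D65 arrays. It was read here as the slide row, which the barcode itself does not state. Whatever it stands for, its effect and that of age cannot be told apart. The bright corner spots, a hybridisation control, were dimmer at D65, their medians being 7563 to 10462 there and 11193 to 16918 at D0. None of 25 marker genes of muscle fibres and other cell types has a named probe, so the labelled tissue was not checked against markers. In such bulk samples, fewer cells of a type and less RNA per cell cannot be told apart. Leaving out D0 replicate 4 moved the counts of called probes most, and the counts are given with and without it.

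A minority of the ultraconserved probes gave a signal in muscle, and more did so at birth than in the adult. The scanner software flags a spot as well above background. At D0, 405 probes (42.1% of the 961 with a usable spot), 386 (40.1%), 398 (41.4%) and 356 (37.0%) carried that flag on replicates 1 to 4. At D65 the numbers were 268 (27.9%), 280 (29.1%), 345 (35.9%) and 322 (33.5%). The ages did not overlap, with means of 386 ± 21.6 at D0 and 304 ± 35.9 at D65 (SD, n = 4 arrays; two-sided exact permutation p 0.0286, the smallest this design allows). The share over all non-control probes was higher on every array and was also lower at D65, at 63.1% to 68.4% against 52.3% to 60.8%. Negative control spots carried the flag at 14.9% to 17.4% at D0 and 8.19% to 13.4% at D65, and the part of these shifts in the counts of ultraconserved probes was not tested.

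**Figure D1:**
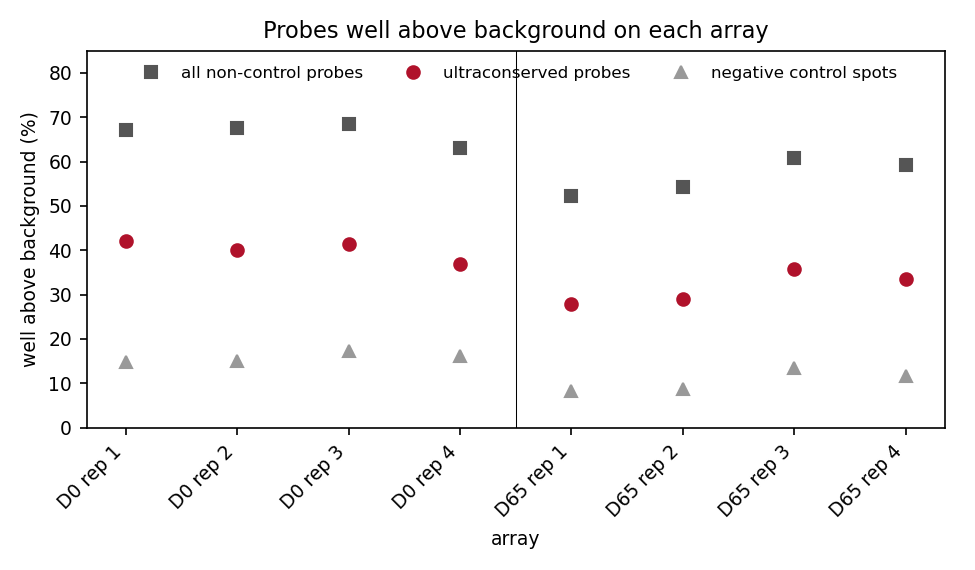
Share of probes or spots well above background (vertical axis, percent) on each of the 8 arrays (horizontal axis), for all non-control probes (squares), ultraconserved probes (circles) and negative control spots (triangles). Ultraconserved probes lay between 27.9% and 42.1%, between the other classes on every array, and all 3 classes were lower on the D65 arrays.

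Most probes gave the same answer on every array. Of the 962, 222 passed on all 8 arrays, 465 passed on none and 275 on some. All 4 D0 arrays showed 298 probes (31.0%), and all 4 D65 arrays showed 235 (24.4%). For comparison, 9.89% of 961 negative control spots were above background on all 4 D0 arrays and 6.87% on all 4 D65 arrays. These passes were uneven over the 20 negative control probes, since 15 of them had no spot above background on all 4 D0 arrays and 2 had most of their spots above it. Of the 298 probes present on every D0 array, 17 (5.70%) were present on no D65 array, beside 3.79% over all probes. Of the 235 present on every D65 array, 0 were absent from all D0 arrays, beside 0.175% over all probes.

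More regions were above background with 1 probe alone than with both, and none moved from 1 probe alone to the other alone between the ages. Whether a probe passes depends on its own sequence as well as on the RNA, so these counts describe the probes. The shares over the other regions of the array are not given here. At D0, 57 regions were above background on all 4 arrays with the plus probe and on none with the minus probe, and 63 showed the reverse. Both probes were above background on all 4 arrays in 56 regions, neither on any in 139, and 166 were mixed. At D65 the counts were 60 plus only, 57 minus only, 39 both, 194 neither and 131 mixed. Plus-only and minus-only regions were thus about equally many at both ages. Of the 120 regions with 1 strand at D0, 82 showed that same single strand at D65, 29 became mixed, 9 showed neither strand, 0 showed both and 0 showed the other strand alone. Without D0 replicate 4 the D0 counts were 70 plus only, 70 minus only and 75 both.

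**Figure D2:**
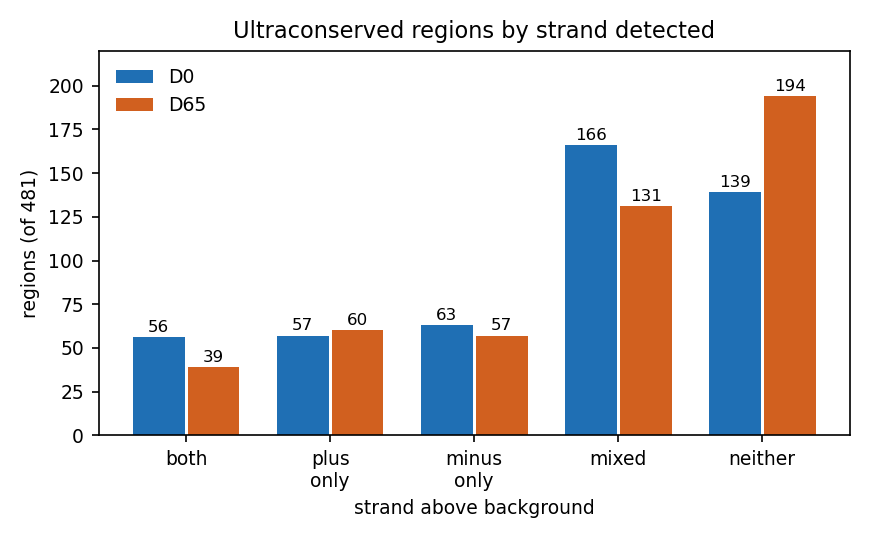
Number of the 481 regions (vertical axis) by the strand whose probe was well above background (horizontal axis) at D0 (blue) and D65 (orange). "Plus only" means the plus probe on all 4 arrays of the age and the minus probe on none, and "mixed" is any other pattern. Plus-only and minus-only regions were nearly equal in number at both ages, and regions with neither strand numbered 139 at D0 and 194 at D65.

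The following single-strand regions were picked after their values were seen, as the brightest of each kind. The minus probe of uc.84 lay between 5.87 and 6.72 on the 8 arrays while its plus probe lay between -6.31 and -4.49, at the level of background. The minus probe of uc.465 lay between 4.40 and 4.99 against -6.31 to -4.83 for the plus probe. The minus probe of uc.162 lay between 3.34 and 4.61 against -6.37 to -5.00. Among plus-only regions, the plus probe of uc.129 lay between 1.62 and 3.22 against -6.27 to -3.35 for the minus probe, and that of uc.432 between 1.23 and 2.30 against -6.31 to -3.81. Between the ages, uc.84-, uc.465-, uc.162- and uc.432+ had log2 differences of 0.24, 0.061, -0.068 and -0.20, none of which was called. The difference of uc.129+ was -0.96 (limma adjusted p 0.0326), just under the minimum, with every D0 array above every D65 array. In each of these regions 1 probe passed the background flag on every array and the other on none.

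Both probes were above background on all 8 arrays in 34 regions, and here the probes still differed widely. The plus probe was brighter on all 8 arrays in 9 of them and the minus probe in 14, and in 11 the order varied between arrays. The median absolute difference between the probes was 2.40 on the log2 scale, with a range of 0.03 to 8.11. The signal of a probe depends on its own sequence as well as on the RNA, so these differences describe the probes and do not measure the strands against each other. A change of the difference with age, treated below, avoids this limit only where both probes are well above background.

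The 222 probes present on every array spanned mean levels from -3.00 to 6.38, with 72 above the 75th percentile of the arrays and 150 below it. The brightest signals came from uc.84-, uc.141-, uc.268-, uc.154+ and uc.420-. The probe uc.84- stood at 6.26 ± 0.31 at D0 and 6.51 ± 0.22 at D65, and uc.268- at 5.99 ± 0.19 and 6.31 ± 0.24 (SD, n = 4). The probe uc.420- stood at 5.52 ± 0.53 and 5.62 ± 0.26. These 3 probes were not called, and their ages overlapped. The probe uc.141- stood at 6.77 ± 0.25 at D0 and 5.95 ± 0.09 at D65, and uc.154+ at 6.54 ± 0.22 and 5.66 ± 0.15. The ages of uc.141- and uc.154+ did not overlap, and their log2 differences of -0.82 and -0.88 (limma adjusted p 0.012 and 0.00878) stayed under the minimum of 1.

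Between the ages, ultraconserved probes changed in both directions. To be tested, a probe had to pass the background flag on every array of D0 or every array of D65, which 311 of the 962 did (32.3%, beside 58.5% of all probes). It was called at a limma adjusted p under 0.05, adjusted over all 34948 tested probes, and a difference of 2-fold or more in either direction, that is 1 on the log2 scale. Of the 311, 21 were higher at D65 (6.75%, beside 9.57% over all tested probes) and 27 were lower (8.68%, beside 12.6%), and 263 were not called. The ages did not overlap for 63 probes (20.3%, beside 31.5%). The median difference over the 311 was 0.14, against 0.06 over all tested probes. The 48 calls lie in 45 regions. Of 152 tested plus probes 13 were higher and 10 lower, and of 159 tested minus probes 8 were higher and 17 lower. The same split over the other stranded probes of the array is not given here. Of the 222 ultraconserved probes that passed on all 8 arrays, 16 were called higher and 11 lower. Over all 28106 probes that passed on all 8 arrays the shares were larger, with 2881 higher (10.3%) and 2798 lower (9.96%). Without D0 replicate 4, 32 of the 311 were higher and 37 lower, beside 4323 and 4920 of all 34948 tested probes. Normexp background correction started from the median signals of spot and background and added an offset of 50 to every spot. After it, 20 of the 48 calls remained when arrays were scaled to the 75th percentile, and 18 remained after quantile normalization.

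**Figure D3:**
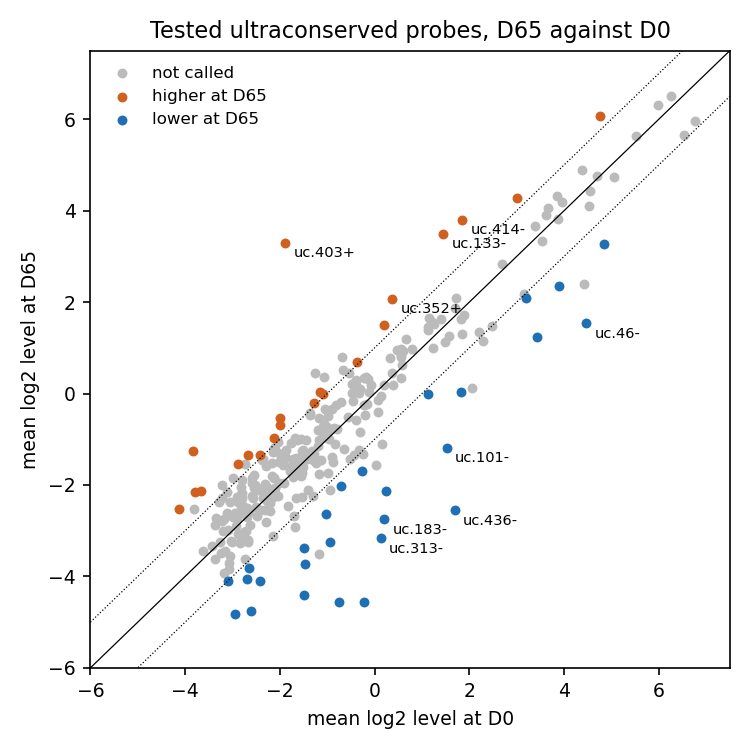
Mean log2 level at D65 (vertical axis) against D0 (horizontal axis) for the 311 tested ultraconserved probes, each the mean of 4 arrays per age (3 at D0 for uc.188-). Grey points were not called, orange points were higher and blue points lower at D65, the solid line marks equal levels and the dotted lines a difference of 1. Most points lie between the dotted lines, and CUST_401_PI426073487, at -1.89 and 3.30, stands far above them.

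The probes that were called under all settings in which they could be tested numbered 15, with 6 higher and 9 lower at D65. The 6 are the plus probes CUST_401_PI426073487, uc.352+ and uc.417+ and the minus probes CUST_612_PI426073487, CUST_893_PI426073487 and uc.188-. The 9 are the minus probe CUST_580_PI426073487, the plus probe CUST_254_PI426073487, uc.436-, uc.367+, uc.313-, uc.163-, uc.455-, uc.45- and uc.472-. Of these, uc.436- and uc.313- were singled out after their values were seen.

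Among the probes that rose, CUST_401_PI426073487, a plus probe, had the largest change. Its levels at D0 were -3.31, -1.81, -1.0 and -1.44 on replicates 1 to 4, and at D65 they were 4.07, 2.48, 3.40 and 3.25. All D65 arrays lay above all D0 arrays, by 5.19 on the log2 scale (SE 0.50, limma adjusted p 5.61e-05), a 36.5-fold rise. After normexp correction with the 75th percentile the difference was 3.94, a smaller fold, and the call held. The opposite probe, CUST_882_PI426073487, was above background on 3 arrays of each age and was not tested. It lay between -4.54 and -2.59 at D0 and between -3.28 and -1.81 at D65, and its ages overlapped. The rise was thus measured on the plus probe.

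The minus probe CUST_612_PI426073487 stood at 1.48, 1.32, 0.92 and 2.09 at D0 and at 3.67, 3.41, 3.35 and 3.56 at D65. It rose by 2.04 (SE 0.26, limma adjusted p 0.00032), and its ages did not overlap. Its opposite probe, CUST_131_PI426073487, was above background on no array. The minus probe CUST_893_PI426073487 stood at 1.76, 1.82, 1.71 and 2.13 at D0 and at 4.06, 3.92, 3.32 and 3.91 at D65, a rise of 1.95 (SE 0.23, limma adjusted p 0.000186). The probe uc.352+ stood at 0.30, 0.28, 0.28 and 0.60 at D0 and at 2.37, 2.18, 1.74 and 2.01 at D65, a rise of 1.71 (SE 0.21, limma adjusted p 0.000254). Its opposite probe was also above background on no array. In all 3 probes D0 replicate 4 was the highest D0 array, and no age overlapped the other.

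The brightest probe that rose was uc.188-, at 4.78, 5.20 and 4.30 on D0 replicates 2 to 4 and at 5.56, 6.24, 6.13 and 6.32 at D65. Its spot on D0 replicate 1 was marked as uneven and left out, so the fit used 3 D0 arrays. It rose by 1.30 (SE 0.30, limma adjusted p 0.0101). The plus probe of the same region, uc.188+, rose by 1.31 (SE 0.29), from 0.20 ± 0.45 to 1.51 ± 0.38 (SD, n = 4). After normexp correction with the 75th percentile the rise of uc.188+ was 0.98, below the minimum. Both strands of this region thus rose by a like amount in the main values, and neither age overlapped the other. The probe uc.417+ stood at 2.73, 2.55, 3.01 and 3.74 at D0 and at 4.38, 4.60, 4.08 and 4.05 at D65, a rise of 1.27 (SE 0.28).

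A further 6 rises measured on all 8 arrays came from dim probes. The probes uc.358+, uc.378+, uc.150+, uc.393+, uc.477- and uc.201+ were above background on all 8 arrays, did not overlap between the ages, and rose by 1.35, 1.34, 1.30, 1.18, 1.15 and 1.08. The first of them, uc.358+, went from -2.89 ± 0.43 to -1.55 ± 0.12 (SD, n = 4). None of these 6 calls was kept under either normexp setting. The calls of uc.393+, uc.477- and uc.201+ were also lost without single arrays. For uc.393+ these were D0 replicate 2 or D65 replicate 1, and for uc.201+ they were D0 replicate 3 or 4. For uc.477- they were D0 replicate 3, D65 replicate 2 or D65 replicate 4. Called rises on all 8 arrays also included uc.117+, uc.293+, uc.92- and uc.12+. The call of uc.117+ was lost only with normexp correction and quantile normalization. Those of uc.293+, uc.92- and uc.12+ were lost under both normexp settings and without some single arrays.

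Among the probes that fell and were measured on all 8 arrays, uc.163- and the minus probe CUST_580_PI426073487 had the lowest adjusted p. The probe uc.163- stood at 3.22, 2.90, 3.66 and 3.98 at D0 and at 1.24, 0.91, 1.34 and 1.45 at D65. It fell by 2.20 (SE 0.27, limma adjusted p 0.000241), a 4.61-fold fall, and its opposite probe was above background on no array. The probe CUST_580_PI426073487 stood at 2.17, 2.18, 0.67 and 1.07 at D0 and at -1.14, -1.51, -1.05 and -1.04 at D65. It fell by 2.71 (SE 0.36, limma adjusted p 0.000387), with replicates 1 and 2 the highest of the D0 arrays. In both probes every D0 array lay above every D65 array.

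Both strands of uc.472 fell. The minus probe stood at 3.85, 4.12, 4.22 and 3.39 at D0 and at 2.12, 2.17, 2.66 and 2.43 at D65, a fall of 1.55 (SE 0.25). The plus probe stood at -0.82, -0.45, -0.36 and -1.17 at D0 and at -2.47, -1.87, -1.90 and -1.89 at D65, where it fell by 1.33 (SE 0.25), a call lost under both normexp settings. The limma adjusted p were 0.00118 and 0.00323, and the ages overlapped on neither strand. The regions uc.12, uc.188 and uc.472 were the only ones in which both strands were called, uc.188 upwards, uc.472 downwards and uc.12 in opposite directions. The calls of both uc.12 probes were lost under both normexp settings, and that of uc.12+, at 1.07, also without D65 replicate 3 or 4.

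The neighbours in number uc.45 and uc.46 both had a minus probe that fell. The probe uc.45- stood at 4.88, 5.43, 4.66 and 4.41 at D0 and at 3.40, 3.22, 3.16 and 3.30 at D65, a fall of 1.58 (SE 0.24, limma adjusted p 0.00103). The probe uc.46- stood at 6.38, 6.34, 2.79 and 2.38 at D0 and at 1.40, 1.38, 1.75 and 1.65 at D65. Replicates 1 and 2 were thus far brighter than replicates 3 and 4 at birth, although all 4 lay above the D65 arrays. The fall of uc.46- by 2.93 (SE 0.87, limma adjusted p 0.0284) was not called without D0 replicate 1 or 2, without any D65 array, or with no filter on dim probes, where adjusted p over all its alternatives ranged from 0.00685 to 0.0703. The plus probe uc.45+ stood 0.99 lower at D65, just under the minimum, and uc.46+ differed by -0.52 with an adjusted p of 0.244.

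Several other probes that fell also varied among the D0 arrays. The probe uc.436- stood at 3.15, 3.32, -0.20 and 0.50 at D0 and at -1.69, -2.35, -3.33 and -2.84 at D65, where 3 of 4 arrays were above background. It fell by 4.25 (SE 0.77, limma adjusted p 0.00257), a size that rests partly on the D65 array in the background. Its opposite probe, uc.436+, was above background only on D0 replicates 1 and 2, at -1.78 and -1.32. In this region replicates 1 and 2 were thus the brighter D0 arrays on both strands. The plus probe CUST_254_PI426073487 had another order, with 1.53, -0.14, -1.61 and 1.21 at D0 and -2.01, -2.08, -2.14 and -2.32 at D65, and it fell by 2.38 (SE 0.58). Without D0 replicate 3 its difference was -3.00, and after normexp correction with the 75th percentile it was -1.33. The probe uc.455- stood at 2.63, 2.21, 1.73 and 0.74 at D0 and at 0.71, 0.0049, 0.023 and -0.57 at D65, a fall of 1.78 (SE 0.41) in which D0 replicate 4 was nearly level with D65 replicate 1.

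The smallest falls of this kind were those of uc.285+ and uc.408-. The probe uc.285+ fell by 1.13 (SE 0.31), from 1.12 ± 0.59 to -0.0085 ± 0.31 (SD, n = 4), and uc.408- fell by 1.09 (SE 0.34), from 3.19 ± 0.75 to 2.10 ± 0.11. Their calls were lost under 5 and 11 of 17 alternatives. Among these were leaving out D0 replicate 1 or 3 or D65 replicate 2 for uc.285+. For uc.408- they were leaving out D0 replicate 1 or 2 or any D65 array, and adjusted p over its alternatives reached 0.0941.

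**Figure D4:**
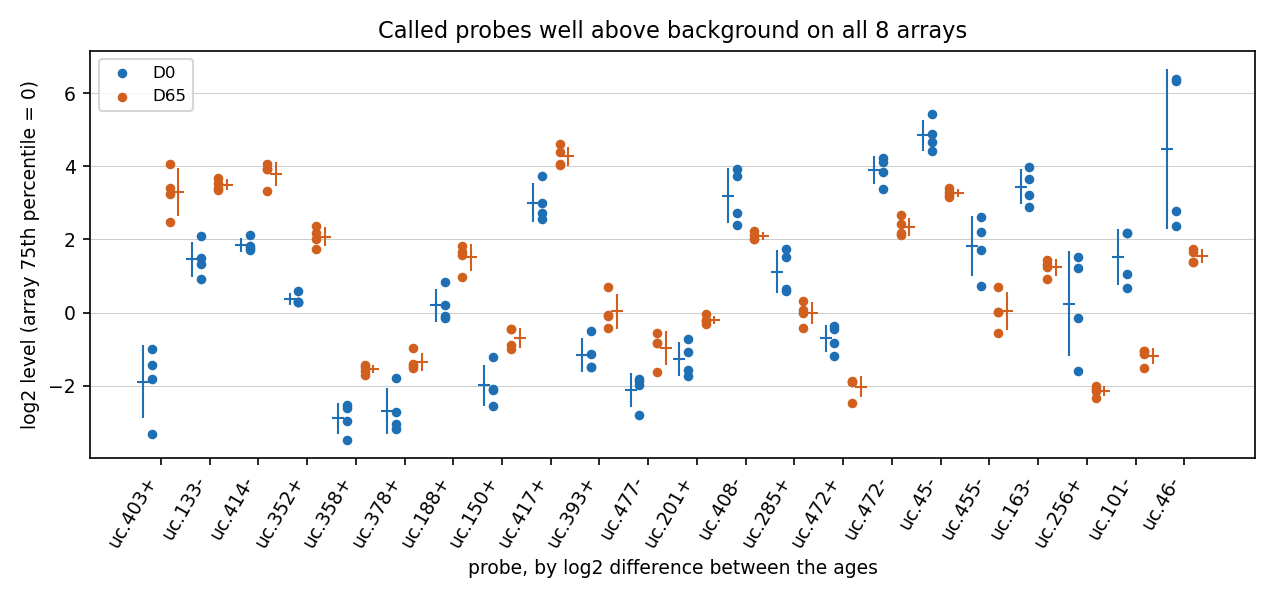
Log2 level (vertical axis, 0 is the 75th percentile of the array) of called ultraconserved probes that were present on all 8 arrays and did not overlap between the ages (horizontal axis), at D0 (blue) and D65 (orange). Each point is 1 array, and bars are the mean ± SD of 4 arrays. The D0 points of uc.46- split into 6.38 and 6.34 against 2.79 and 2.38.

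For 10 of the 27 lower probes no D65 array was above background, so only a bound on the fall was measured. The bound sets the mean of the D0 arrays against D65 arrays in which each takes the higher of the probe's own signal and the lowest signal well above background. The probe uc.367+ stood at 0.74, 0.86, -0.91 and -1.62 at D0 and was at least 6.94-fold higher there (limma adjusted p 0.000767). The probes uc.77-, uc.15+ and uc.64+ were at least 2.94-fold, 2.90-fold and 2.86-fold higher at D0, and uc.37- was at least 1.54-fold higher. These bounds hold for the main values only, because after normexp correction with the 75th percentile the differences of uc.367+, uc.77-, uc.15+, uc.64+ and uc.37- were -1.55, -0.44, -0.54, -0.38 and -0.085, smaller than the bounds. Only uc.367+ among these 5 kept its call under both normexp settings, and without D0 replicate 1 or 2 or D65 replicate 1 or 4 uc.37- was also not called. For uc.428+ the bound was under 1, so no fold is given. For uc.428+, uc.193+, uc.376+, uc.203- and uc.356- the sign turned after normexp correction with the 75th percentile.

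The other 6 lower probes were above background on 1 to 3 D65 arrays. One is uc.313-, which stood at 0.76, 1.05, 0.10 and -1.41 at D0 and at -4.83, -2.83, -2.63 and -2.35 at D65. There 2 arrays were above background, and the fitted fall was 3.29 (SE 0.63, limma adjusted p 0.00367). The other D65 arrays lay in the background, so this fall is not a measured size. No called probe was above background at D65 alone. The 5 higher probes that were above background on 1 to 3 D0 arrays include uc.21-, chosen after its values were seen. It passed on 1 D0 array, and it stood at -3.96, -4.79, -4.09 and -2.49 at D0 and at -2.16, -1.0, -0.73 and -1.09 at D65, with no overlap between the ages. Its fitted difference of 2.59 (SE 0.48) is not a measured size, since 3 D0 arrays lay in the background, and it was not called with normexp correction and quantile normalization.

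Close to the minimum difference of 1, uc.428+ at -1.01, uc.92- at 1.05 and uc.12+ at 1.07 lay just inside, and uc.45+ at -0.99, uc.420+ at 0.98 and uc.129+ at -0.96 just outside with adjusted p under 0.05. The 263 uncalled probes ranged in difference from -2.34 to 1.72, and 18 of them had an adjusted p under 0.05. For 123 of the 263 the 95% interval of the difference lay wholly between -1 and 1, so a 2-fold change lay outside it. For the other 140 the interval reached 1 or -1, and these data do not settle whether such a probe changed 2-fold.

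The partners of the called probes were mostly untested or uncalled, as were most ultraconserved probes. Of the 48 called probes, 26 had an opposite probe too dim to be tested, and 15 of those 26 opposite probes were above background on no array. Of the other 22, 16 had a tested opposite probe that was not called, and 6 were the 3 pairs of uc.12, uc.188 and uc.472. Among all 962 members, 651 were too dim to be tested. Of the 311 tested members 15.4% were called, beside 22.1% over all tested probes.

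The change of strand balance was tested directly in the 62 regions with both probes tested. For each array the minus probe was subtracted from the plus probe, and these differences were compared between the ages. This removes the scale of the array and, for signals well above background, the fixed binding of each probe. Of the 62 regions, 10 changed (16.1%, beside 22.2% of all 653 such regions of the array) at a limma adjusted p under 0.05 over the 653 and a change of at least 1. In 7 the balance moved towards the plus probe and in 3 towards the minus probe. The same split over the 653 regions is not given here. Of the 7, uc.12, uc.77, uc.183, uc.356 and uc.452 had a minus probe above background on 0 to 2 D65 arrays. Among the 10, both probes passed on all 8 arrays only in uc.141, uc.378, uc.154 and the region of CUST_893_PI426073487. Of these, uc.141 and uc.378 moved towards the plus probe and the others towards the minus probe. Without D0 replicate 4, 15 regions changed, and with normexp correction and quantile normalization 4 did.

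In the region of CUST_893_PI426073487 both probes were above background on all 8 arrays. The difference of plus minus minus stood at -2.55, -2.42, -2.68 and -3.41 at D0 and at -5.61, -5.08, -4.81 and -5.26 at D65. It fell by 2.43 (SE 0.31, limma adjusted p 0.000563), and the ages did not overlap. The minus probe rose, as given above, while the plus probe, CUST_412_PI426073487, stood at -0.91 ± 0.29 at D0 and -1.39 ± 0.17 at D65 (SD, n = 4), a difference of -0.48 that was not called. This change passed in all 17 alternatives run.

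In uc.12 the balance moved towards the plus probe. The difference stood at -2.53, -2.57, -1.41 and 0.62 at D0 and at 1.72, 1.77, 2.03 and 2.08 at D65, a change of 3.37 (SE 0.62, limma adjusted p 0.00379). The minus probe went from -0.023, 0.19, -1.14 and -2.79 at D0 to -3.48, -3.47, -3.04 and -2.98 at D65, where 2 arrays were above background. The plus probe went from -2.56, -2.37, -2.55 and -2.16 to -1.76, -1.70, -1.01 and -0.90. D0 replicate 4 was the D0 array nearest to D65 on both strands. The change of the balance passed in all 16 alternatives run, with values of 1.33 after normexp correction to 4.07 without D0 replicate 4. Since 2 D65 arrays of the minus probe lay in the background, its size rests partly on dim spots.

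The regions uc.77, uc.452, uc.183 and uc.356 shared a pattern in which the minus probe fell at D65 and the plus probe was not called. The plus probe of uc.77 stood at 1.24 ± 0.55 and 1.00 ± 0.40, while uc.77- stood at -1.49 ± 0.83 at D0 and was above background on no D65 array. The minus probe of uc.452 stood at 0.39, 0.28, -2.41 and -1.25 at D0 and at -2.46, -5.16, -5.56 and -5.03 at D65, where only replicate 1 was above background, while uc.452+ stood at -1.14 ± 0.29 and -1.45 ± 0.13 (SD, n = 4). The minus probe of uc.183 stood at 1.25, 1.12, 0.53 and -2.07 at D0 and at -2.17, -4.13, -0.81 and -3.90 at D65, so its ages overlapped at D0 replicate 4. The fitted changes of balance were 2.69 for uc.77, 3.49 for uc.452, 3.39 for uc.183 and 1.58 for uc.356, but they are not measured sizes. No D65 array of uc.77- or uc.356- passed the background flag, 1 of uc.452- did and 2 of uc.183- did. The fall of uc.356- was called in 6 of 15 alternatives and that of uc.183- in 9 of 15, both lost without any of D0 replicates 1 to 3 or D65 replicates 2 and 4, and for uc.356- also without D65 replicate 3. After normexp correction with the 75th percentile the changes of uc.77, uc.452 and uc.356 were 0.11, 0.88 and -0.078, none of them called, the last with the sign turned. The call of uc.183 was lost without any of D0 replicates 1 to 3 or D65 replicates 1, 2 and 4, with adjusted p up to 0.116, and without D0 replicate 4 the change was 4.51.

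In uc.359 the balance moved the other way. The plus probe fell from -1.03 ± 0.70 to -2.64 ± 0.45 (SD, n = 4), and uc.359- stood at -3.12 ± 0.85 and -2.15 ± 0.73. A difference of 2.08 at D0 thus became -0.49 at D65 (change -2.58, SE 0.62, limma adjusted p 0.0118). Each probe of uc.359 passed the background flag on 3 of 4 D65 arrays, so this size rests partly on dim spots. The call of uc.359+ was lost under both normexp settings. In uc.378 the plus probe rose and the minus probe stood at -2.31 ± 0.48 and -2.54 ± 0.19, and the difference went from -0.37 to 1.19 (change 1.57, SE 0.33, limma adjusted p 0.00712). With normexp correction the changes of uc.378 were 0.58 under both scalings, and that of uc.359 was -0.95 with quantile normalization, all below the minimum. In both regions the ages did not overlap.

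The changes of uc.141 and uc.154 were the smallest among the 10. In uc.141 the minus probe was the brighter one, and the difference went from -8.70 ± 0.60 to -7.51 ± 0.33 (SD, n = 4; limma adjusted p 0.0307). In uc.154 the plus probe was the brighter one, and the difference went from 6.61 ± 0.66 to 5.48 ± 0.13, with a limma adjusted p of 0.037. Neither probe of either region was called on its own. These 2 calls were lost in 8 and 11 of 17 alternatives. Without D0 replicate 1 or 2, or D65 replicate 2 or 3, neither was called, and for uc.154 leaving out D65 replicate 1 or 4 also ended the call, with adjusted p up to 0.0875 and 0.0985.

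**Figure D5:**
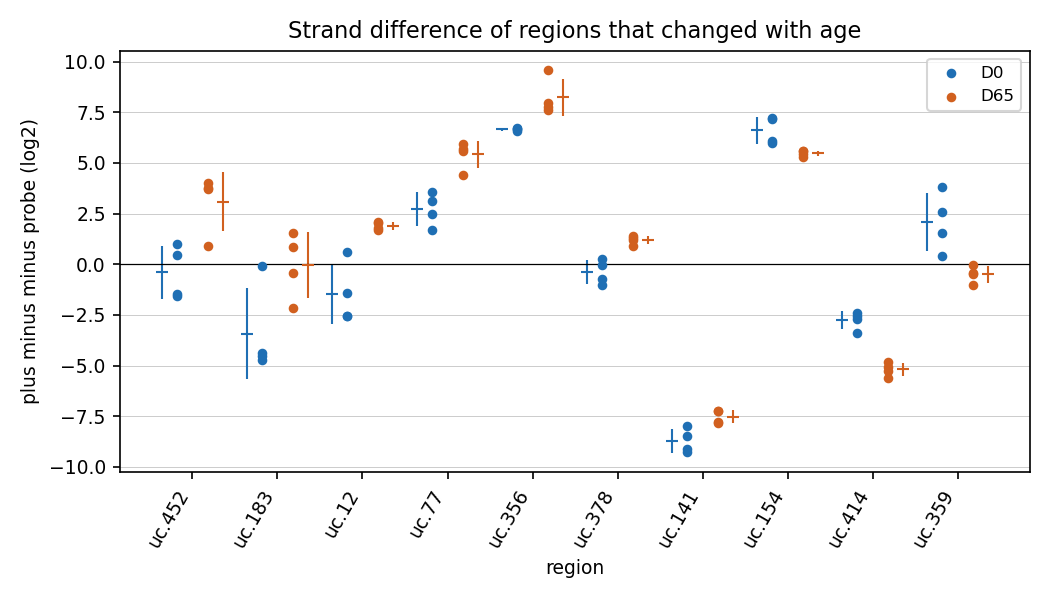
Level of the plus probe minus that of the minus probe (vertical axis, log2) in the 10 regions whose strand balance changed with age (horizontal axis), at D0 (blue) and D65 (orange). Each point is 1 array and bars are the mean ± SD of 4 arrays. The ages separate in 8 regions and overlap in uc.183 and uc.452, and the mean lies on opposite sides of 0 at the ages in uc.12, uc.359, uc.378 and uc.452.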

How the data were processed

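Muscle RNA without ribosomal RNA was turned, by random priming, into cRNA carrying Cy3, per the labels' protocols. The authors' deposited scanner files (Agilent Feature Extraction 11.0.1.1, grid on mm9, per the file headers) give intensity per spot after background subtraction, and flags of 0 or 1, which are scanner output other than a brightness. The deposited value table holds the authors' normalized intensity on a linear scale, with its method not given in the sources used here. It lists 222 members, all of them above background on all 8 arrays.

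Outlier spots, control spots and 20 negative control probes were left out. Each member has 1 spot, and none was saturated. The 75th percentile of each array was subtracted from log2 of its processed intensity. Tests used limma 3.58.1 in R 4.3.3 (lmFit, eBayes) over all tested probes or strand pairs, with Benjamini-Hochberg adjustment, and summaries Python 3.11.15. The fits were tested on simulated data with planted changes of 2 on the log2 scale. They recovered 151 of 200 changed probes and 88 of 100 changed strand pairs, with 4 false calls in each. The number of arrays limits the precision.

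The members, the rule for named probes and the tests were chosen with earlier results of these data known. Named were up to 12 called probes each way on all 8 arrays with no overlap, up to 5 by bound, regions with both strands called or a changed balance, the 5 brightest, 3 on each side of the minimum, and probes named earlier. Alternatives changed background correction, scaling, filter, thresholds, arrays left out and pairing. Counts of single-strand regions with an array left out were added after seeing the data.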

Additional observations from a re-analysis of the deposited data

Results flagged for a closer look

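In 7 of 127 groups of 4 arrays, 1 array lay far from the other 3 by the gap between them relative to the range of the group, and chance flags about 1 in 20. On D65 replicate 3 uc.141- stood at 6.08, against 5.90 to 5.92 on the others. On D0 replicate 4 uc.352+ stood at 0.60, against 0.28 to 0.30. On D0 replicate 3 uc.378- stood at -3.02, against -2.15 to -2.0, and uc.477- at -2.79, against -1.98 to -1.82. On D65 replicate 1 uc.472+ stood at -2.47, against -1.90 to -1.87. The strand balance of uc.183 was -0.070 on D0 replicate 4, against -4.71 to -4.38, and that of uc.452 was 0.93 on D65 replicate 1, against 3.72 to 3.99.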

How the results depend on the processing

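With normexp correction, 7 ultraconserved probes were called higher and 11 lower with quantile normalization, and 8 and 16 with the 75th percentile, against 21 and 27 in the main values. Over all 34948 tested probes the counts were 1917 and 2324, 1644 and 2831, and 3344 and 4395. With no filter on dim probes 39 of 962 were higher, beside 3855 of all 59709. With no minimum difference 33 were higher, and the count over all probes is not given here. Testing only probes present on every array left 11 lower, and 10 were lower in the authors' value table, each of 222 members. Over all probes these lower counts were 2832 of 28106 and 1100 of 14529. Taking the 75th percentile over probes present on every array gave 30 higher and 25 lower, and 54.5% of the calls were then higher, against 43.8%. Over all tested probes the share moved likewise, to 52.1% of the calls against 43.2%. That scaling moved the median of all tested probes from 0.06 to 0.18, and normexp with the 75th percentile moved it to 0.19. Leaving out 1 array at a time gave 19 to 32 higher, 20 to 37 lower and 8 to 15 regions with a changed strand balance. Over all tested probes it gave 2773 to 4323 higher and 3954 to 4920 lower. The strand balance changed in 4 regions with normexp and quantile normalization, 4 when both probes had to be present on every array, 21 with no filter and 25 with 1 tested strand. The sign turned after normexp with the 75th percentile for uc.356- (0.13), uc.378- (0.22), uc.420- (-0.14), uc.428+ (0.21) and the strand balance of uc.356 (-0.078), beside the called probes uc.193+, uc.203- and uc.376+ given above. It turned without D0 replicate 2 for uc.77+ (0.0083, range -0.44 to 0.0083 with each array left out) and without D0 replicate 4 for uc.420- (-0.10, range -0.10 to 0.33). The cause was not tested. Same-numbered samples deviated together in 2 of 4 pairs, with correlations of -0.12, 0.24, 0.28 and -0.13. These values do not settle whether same-numbered samples share more than a number, and the main fit treats them as unpaired. With replicate number as a block, 23 ultraconserved probes were higher, 29 lower and 12 regions changed balance. Over all tested probes 3357 were then higher and 4393 lower. Signals near background limit the dim probes.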
